A study of Mus musculus with 39 samples.

Results

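The genes described here encode the nuclear subunits of the mitochondrial respiratory chain and of ATP synthase. They were chosen by symbol. The names began with Nduf followed by a, b, c, s or v and a number (complex I), were Sdha, Sdhb, Sdhc or Sdhd (complex II), or began with Uqcr (complex III), with Cox4 to Cox8 (complex IV) or with Atp5 (complex V), leaving out Ndufa4l2 and names with -ps or Rik. Of 24946 genes common to the tables, 84 matched, and 79 of these reached 20 in 5 or more libraries of the Smad4 cohort. They comprise 37 genes of complex I, 4 of complex II, 8 of complex III, 13 of complex IV and 17 of complex V. The 5 that failed the threshold were Cox7b2, Cox8b and Cox8c, for which the fifth highest value was 0, Cox6a2 at 2.14 and Cox7a1 at 9.79. The lowest that passed were Cox4i2 at 131.04 and Cox6b2 at 143.68. All 79 were tested in every comparison, and the rule uses no difference between groups.

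Complexes I, III and IV pass electrons from NADH to oxygen through ubiquinone and cytochrome c and pump protons out of the mitochondrial matrix. Complex II feeds in electrons from succinate without pumping, and complex V, the ATP synthase, lets the protons back in to make ATP. Most subunits are encoded in the nucleus, a few in mitochondrial DNA, and complex IV has alternative subunits that differ between tissues and with oxygen supply. Endothelial cells are known for making much of their ATP by glycolysis, and brain endothelial cells for a high content of mitochondria.

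RNA was sequenced from endothelial cells of whole brains of C57BL/6 pups, released by enzymatic dissociation and captured on beads coated with an antibody to PECAM. Mutants were Smad4f/f; Cdh5-CreERT2, Alk1f/f; Cdh5-CreERT2 or Engf/f; Cdh5-CreERT2, in which the Cdh5 promoter drives a tamoxifen-dependent Cre in endothelial cells. Wild types were Smad4f/f, Alk1f/f or Engf/f without Cre, so an effect of Cre itself and of losing the floxed gene cannot be told apart. Alk1 is the receptor gene Acvrl1, Eng encodes its co-receptor and Smad4 the transducer of this BMP pathway, and their loss models hereditary haemorrhagic telangiectasia. Smad4 and Eng pups received 300 µg of tamoxifen daily from postnatal day 1 to 3 and gave cells on day 7. Alk1 pups received 100 µg once, on day 4, and gave cells on day 6. Each of these groups held 5 libraries. In a further Smad4 cohort 3 wild types and 3 mutants received control IgG, and 3 mutants received LC10, an inhibitor of angiopoietin-2, each at 30 µg on days 2 and 4. Nothing says how the replicates of a group were obtained, so p-values measure the spread between these libraries.

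Values are normalized expression values on a linear scale, and a change is the mutant minus the wild-type mean of log2(value + 2), with its standard error (SE). A gene is called when limma gives an adjusted p under 0.05 over all genes tested. The values of a library summed to between 25.44M and 42.74M. The targeted gene fell from 5704 ± 264 (SD, n = 5) to 1820 ± 114 in the Smad4 mutants, from 5848 ± 194 (n = 3) to 2315 ± 635 in the IgG-treated Smad4 mutants, and from 63420 ± 4121 to 10150 ± 1234 (n = 5) in the Eng mutants. In the Alk1 cohort the value of Acvrl1 over the whole gene was 15320 ± 1011 in wild types and 14150 ± 1480 in mutants, which does not check the labels if the deleted part is small. All 12 endothelial markers were expressed, with a summed value of 470510 to 696056 in each library. Markers of neurons, astrocytes, oligodendrocytes and pericytes were present too, and their values stand beside the results they move with. In these bulk samples fewer cells of a type and less RNA per cell cannot be told apart. Mutant 3 of the Smad4 cohort stood apart, with a median over the 79 genes of -0.241 (log2, against the wild-type mean), while the other 4 mutants lay between 0.085 and 0.184. In the Alk1 cohort wild type 2 and mutant 2 were low, at -0.179 and -0.155.

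In endothelial cells lacking Eng, of the 79 genes 31 were called higher and 1 lower, and 72 had a positive change, with a median of 0.13 (log2). Among all 14350 genes tested 12.4% were called higher and 9.08% lower, with a median of -0.01. In complex IV 10 of 13 genes were higher, in comparison with 10 of 37 in complex I, 1 of 4 in complex II, 2 of 8 in complex III and 8 of 17 in complex V. The rises were small: apart from Cox6b2, described further on, no gene exceeded 0.33. The per-library median of the 79 genes lay between 0.084 and 0.181 in the 5 mutants and between -0.022 and 0.028 in the 5 wild types, so the groups did not overlap. Without 1 library at a time the number higher ran from 23 to 32. In a joint fit of all 30 untreated libraries, which takes its spread from the other cohorts as well, it was 12, beside 13 in Smad4 and 14 in Alk1 mutants, so the order of the cohorts depends on the fit. For these alternatives the share of all genes called is not given here. The joint fit kept 2 of the 10 complex IV calls, Cox6a1 and Cox6b2, and 4 of 10 in complex I, 1 of 1 in complex II, 1 of 2 in complex III and 4 of 8 in complex V.

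**Figure D1:**
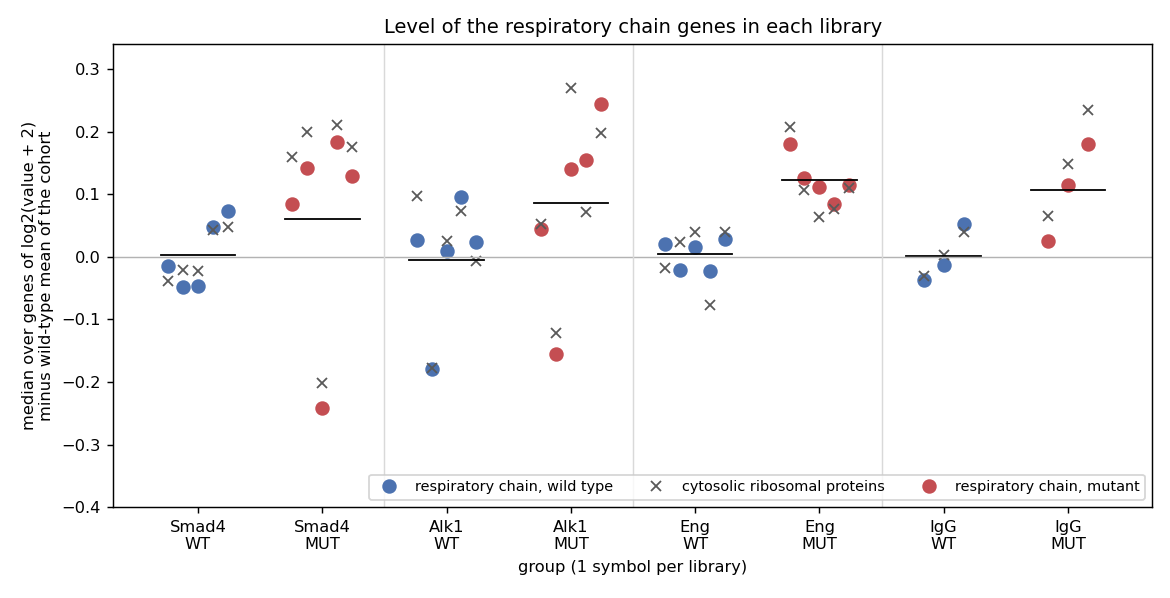
Each symbol is 1 library; the vertical axis is the median, over the genes of a set, of log2(value + 2) minus the wild-type mean of that cohort, with blue and red for the respiratory chain genes of wild types and mutants, grey crosses for cytosolic ribosomal proteins, and a bar for the mean over libraries. All 5 Eng mutants lie above all 5 Eng wild types, Smad4 mutant 3 lies at -0.241 below its group, and Alk1 wild type 2 and mutant 2 are both low; the direction in the Smad4 cohort turns when libraries are scaled by their totals.

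Within complex I, the NADH dehydrogenase, the smallest adjusted p with loss of Eng were found for accessory subunits. Ndufb6 had values of 966 to 1006 in wild types and of 1142 to 1308 in mutants. The groups did not overlap, and the change was 0.29 (SE 0.05, adjusted p = 0.00076). Ndufb8 rose by 0.26 (SE 0.05, adjusted p = 0.0025) and Ndufa12 by 0.25 (SE 0.05, adjusted p = 0.005), and the joint fit kept none of these 3 calls (adjusted p of 0.224, 0.0573 and 0.0886). The 7 core subunits all had positive changes, and 2 of them were called (28.6%). Of the 30 other complex I genes 29 had positive changes, and 8 were called higher (26.7%). Ndufa4 carries a complex I name but is a subunit of complex IV, and it rose by 0.18 (SE 0.06, adjusted p = 0.039), a call lost in 11 of 21 alternatives (joint fit 0.306).

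In complex II, Sdhb, the iron-sulfur subunit of succinate dehydrogenase, rose by 0.15 (SE 0.04, adjusted p = 0.027; lost in 5 of 21 alternatives), and the other 3 genes had changes of at most 0.10 that were not called. In complex III, Uqcrq rose by 0.27 (SE 0.06, adjusted p = 0.008) and Uqcr11 by 0.16 (SE 0.05, adjusted p = 0.029), the latter call lost in 9 of 21 alternatives (joint fit 0.359). The core protein gene Uqcrc1 did not pass in this cohort (0.10, SE 0.04, adjusted p = 0.068).

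In complex IV, cytochrome c oxidase, the genes called higher were Cox5a, Cox5b, Cox6a1, Cox6b1, Cox6b2, Cox6c, Cox7a2, Cox7b, Cox7c and Cox8a. Cox5a, which binds next to the catalytic core, had values of 2815, 2870, 3036, 3137 and 3168 in wild types and of 3269, 3462, 3481, 3506 and 3903 in mutants, without overlap (0.23, SE 0.05, adjusted p = 0.007). Cox6b1 rose from 3028 ± 65.4 to 3322 ± 66.9 (0.13, SE 0.03, adjusted p = 0.0072). Cox4i1, the common form of the largest nuclear subunit, was at 8447 ± 376 in wild types and 8315 ± 293 in mutants, with overlapping groups (-0.02, adjusted p = 0.74). One gene was lower, Cox7a2l, which encodes a factor that joins complexes III and IV into supercomplexes.

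In complex V, the genes for the proton-carrying c subunit all rose with loss of Eng. These are Atp5g1, Atp5g2 and Atp5g3, which encode the same mature protein. Atp5g1 had values of 1558, 1558, 1633, 1640 and 1716 in wild types and of 1911, 1990, 2028, 2100 and 2102 in mutants (0.32, SE 0.04, adjusted p = 0.00023). Atp5g2 rose by 0.20 (SE 0.04, adjusted p = 0.0048) and Atp5g3 by 0.17 (SE 0.03, adjusted p = 0.0033), the latter call lost in the joint fit (adjusted p = 0.389). The catalytic beta subunit gene Atp5b went from 25900 ± 843 to 29370 ± 629 (0.18, SE 0.03, adjusted p = 0.0025). The alpha subunit gene Atp5a1 went from 22210 ± 753 to 24550 ± 821 (0.14, SE 0.04, adjusted p = 0.013, joint fit 0.11). Neither overlapped between groups.

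Other large gene sets also held higher calls in the Eng mutants. Of 78 cytosolic ribosomal protein genes tested 30 were higher and 0 lower, with a median of 0.12. Of 77 mitochondrial ribosomal protein genes 18 were higher and 0 lower, with a median of 0.14. Among all genes with transcripts under 800 bases the median was 0.09, against -0.02 for longer ones. Among the 79, the 45 shorter genes had a median of 0.15 and the 33 longer ones of 0.10 (1 gene has no annotated length here). The part of transcript length in the rise was not tested. Endothelial markers were lower for 5 of 12 genes, with a median of -0.12. By limma 0 of 11 neuron, 0 of 7 astrocyte, 0 of 8 oligodendrocyte and 0 of 10 pericyte markers were called, and at an unadjusted p under 0.05 there were 1, 0, 0 and 0. Erythroid markers were lower for 3 of 5 genes, with a median of -0.63, and their part in the changes was not tested.

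**Figure D2:**
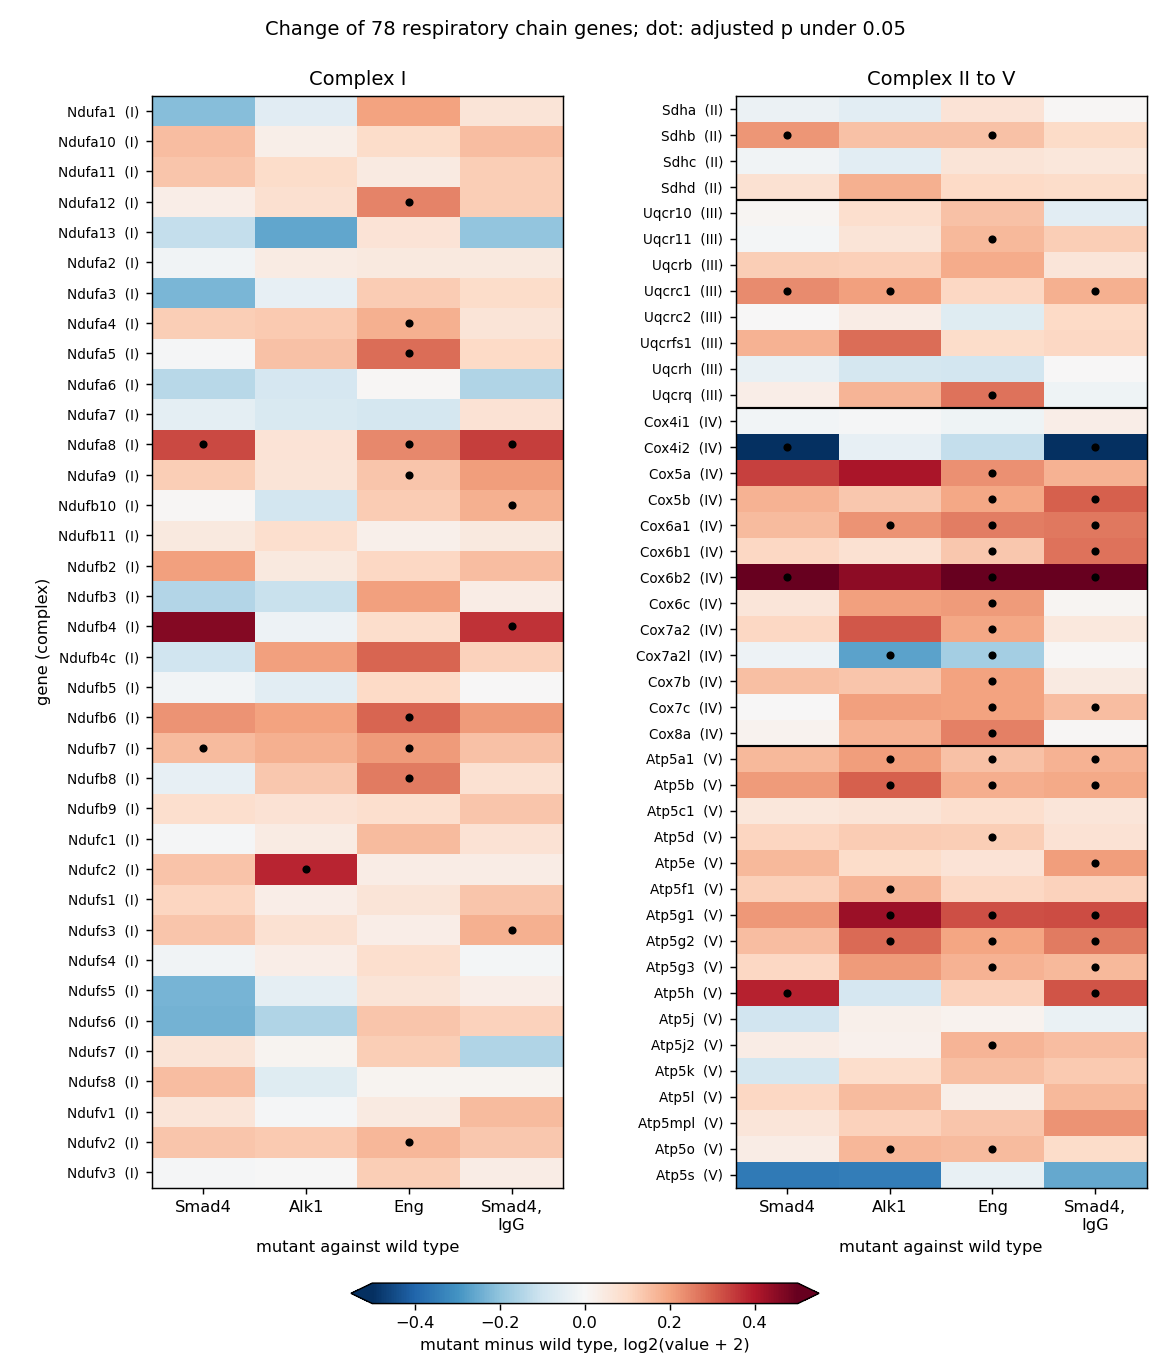
Each row is 1 gene with its complex, for 78 of the 79, each column 1 comparison; colour gives the mutant minus wild-type difference of log2(value + 2), limited to 0.5 in either direction, and a dot marks an adjusted p under 0.05. The Eng column is mostly red, complex IV with 10 of 13 genes called higher. Complex V carries 6 of the 9 genes called higher in Alk1 mutants, of which Atp5a1, Atp5f1, Atp5g2 and Atp5o were lost with quantile normalization. Cox4i2 and Cox7a2l are the genes called lower. The Smad4 column as a whole turns when libraries are scaled by their totals.

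In Alk1 mutants most of the genes called belonged to the ATP synthase. Of the 79 genes 9 were called higher and 1 lower, with a median of 0.08, while 17.5% of all 13635 genes were called higher and 15.7% lower. The share of the 79 called higher was 11.4%, and no difference from all genes was tested. Complex V had 6 of its 17 genes higher, namely Atp5a1, Atp5b, Atp5f1, Atp5g1, Atp5g2 and Atp5o. Of 23 alternatives the Atp5f1 call was lost in 15, Atp5o in 8, Atp5a1 in 5, Atp5g2 in 2 and Atp5b in 1. Quantile normalization ended those of Atp5a1, Atp5f1, Atp5g2 and Atp5o. Complex I had 1 gene higher, complex III 1, complex IV 1 higher and 1 lower, and complex II 0 (limma; 1 of 4 at an unadjusted p under 0.05). When libraries were scaled by their totals the count was 3 higher and 2 lower, and the median fell to 0.003.

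Atp5g1 had the smallest adjusted p in this cohort. Its values were 1234, 1240, 1248, 1302 and 1357 in wild types and 1474, 1667, 1714, 1754 and 2004 in mutants, without overlap, and the change was 0.43 (SE 0.08, adjusted p = 0.0015). It was called under every alternative tried in the Alk1 cohort. Atp5b rose from 20510 ± 920 to 25250 ± 1451 (0.30, SE 0.06, adjusted p = 0.0031), again without overlap. Atp5g2 rose by 0.29 (SE 0.07, adjusted p = 0.0079), while Atp5g3, at 0.21 (SE 0.12, adjusted p = 0.21), did not pass.

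Among the rest, Uqcrc1 rose by 0.21 (SE 0.06, adjusted p = 0.015; 0.078 when scaled by totals and 0.222 with quantile normalization) and Cox6a1, subunit VIa of complex IV, by 0.22 (SE 0.07, adjusted p = 0.035). Ndufc2, a complex I accessory subunit, rose by 0.38 (SE 0.13, adjusted p = 0.044). The Cox6a1 call was lost in 13 and the Ndufc2 call in 14 of 23 alternatives. Cox5a had a change of the same size, 0.41 (SE 0.15), without passing (adjusted p = 0.056): its values ran from 1690 to 2687 in wild types and from 2276 to 3581 in mutants. The library code in the column names splits both groups, with 2 of 5 libraries of each coded L219. With the code as a term 15 genes were higher and 2 lower, within the L219 libraries 14 were higher and within those without a code 2. Leaving out wild type 2 and mutant 2 together, chosen after seeing the data, left 8 higher and 1 lower with a median of 0.094. Leaving out mutant 2 alone gave 15 higher, and leaving out any one of wild type 1, wild type 2, mutant 4 or mutant 5 gave 5. Cytosolic ribosomal proteins were higher for 7 of 79 genes in this cohort, with a median of 0.10. Neuron markers were lower for 2 of 9 genes. With the level of neuron, astrocyte and oligodendrocyte markers as a covariate 14 of the 79 genes were higher and 1 lower, with a median of 0.114. The share of all genes called under the alternatives for this cohort is not given here. Erythroid markers were lower for 4 of 4 genes tested (median -1.28), smooth muscle markers for 4 of 5 (median -1.03) and pericyte markers for 3 of 10. The part of these 3 marker sets in the changes was not tested.

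In untreated Smad4 mutants 7 of the 79 genes were called higher and 1 lower. The share higher was 8.86%, beside 17.2% higher and 15.8% lower among all 14012 genes tested. The median of the 79 was 0.06, and it became -0.018 when libraries were scaled by their totals. That scaling also moved the share of calls that were higher among all genes from 52.1% to 37.2%, and in the Alk1 cohort from 52.7% to 41.1%. They include Ndufa8 and Ndufb7 of complex I, Sdhb, Uqcrc1, Cox6b2 and Atp5h. The count rested on mutant 3: without it 22 genes were higher and 1 lower, with a median of 0.134. Library codes again split both groups. Within the L146 libraries, 2 per group, 20 genes were higher and 0 lower, with the code as a term 17 were higher and 2 lower, and with the code as a term and without mutant 3, chosen after seeing the data, 34 were higher. The share of all genes called under these alternatives is not given here, so these counts are not set against all genes.

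Uqcrc1, a core subunit of complex III, was among the steadiest. Its values were 5242, 5267, 5312, 5507 and 5528 in wild types and 5939, 6264, 6448, 6465 and 6554 in mutants, mutant 3 included, without overlap. The change was 0.24 (SE 0.04, adjusted p = 0.0019), and it was called under every alternative. Sdhb had values of 2097, 2100, 2149, 2251 and 2295 in wild types and of 2407, 2511, 2575, 2578 and 2623 in mutants (0.22, SE 0.05, adjusted p = 0.0046). These groups did not overlap either, and the call was lost when libraries were scaled by totals (0.14, adjusted p = 0.0604) and within the L146 libraries (adjusted p = 0.11). Atp5h, subunit d of the stalk that holds the ATP synthase head in place, went from 2712, 2802, 3003, 3202 and 3266 in wild types to 3309, 3635, 3941, 4168 and 4565 in mutants (0.38, SE 0.09, adjusted p = 0.0074), and with the level of neuron and glia markers as a covariate the change was 0.21 (adjusted p = 0.168). Ndufa8 had a mean of 2377 ± 48.1 in wild types and 3015 ± 434 in mutants (0.33, SE 0.09, adjusted p = 0.019), where mutant 3 lay among the wild types at 2333. This call was lost with the same covariate (0.17, adjusted p = 0.327) and within the libraries without a code (adjusted p = 0.161). Ndufb7 rose by 0.16 (SE 0.05, adjusted p = 0.032) and was called in 11 of 23 alternatives.

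Short transcripts were low in Smad4 mutant 3. Its median over the genes under 800 bases was -0.296 for the respiratory chain and -0.139 for all genes, against -0.058 and -0.011 for longer ones. Cytosolic ribosomal proteins, at -0.201, were low in that library too, while mitochondrial ribosomal proteins were at 0.005. Over the whole cohort 17 of 79 cytosolic ribosomal protein genes were higher and 0 lower, with a median of 0.096. Of 77 mitochondrial ones 13 were higher and 0 lower, with a median of 0.145, beside 17.2% higher among all genes. Markers of other brain cells also differed between the groups. Neuron markers were lower for 8 of 11 genes, with a summed value of 4064 to 7178 in wild types and 2418 to 5467 in mutants, oligodendrocyte markers for 4 of 8 (7637 to 23316 against 2682 to 9272) and astrocyte markers for 2 of 7 (13125 to 32405 against 7682 to 20074). With the level of these markers as a covariate 3 of the 79 genes were higher, and the median was -0.074. Smooth muscle markers were lower for 4 of 5 genes and erythroid markers for 3 of 4, and their part in the changes was not tested.

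In the IgG-treated Smad4 cohort 18 genes were higher and 1 lower, with a median of 0.10, and 13.2% of all 14052 genes were called higher and 10.8% lower. Complex V had 7 of 17 genes higher and complex IV 5 of 13, against 5 of 37 in complex I, 1 of 8 in complex III and 0 of 4 in complex II (limma; 0 of 4 at an unadjusted p under 0.05). Ndufa8 rose from 2016, 2227 and 2236 to 2543, 2801 and 2899 (0.35, SE 0.07, adjusted p = 0.0066). Atp5g2 rose from 3428, 3431 and 3497 to 4000, 4179 and 4231 (0.26, SE 0.04, adjusted p = 0.0026), and Cox6a1 from 3610, 3739 and 3858 to 4129, 4589 and 4761 (0.26, SE 0.06, adjusted p = 0.01). None of these groups overlapped. With 3 libraries a group the count was unstable: it ran from 5 to 23 when 1 library was left out, reached 5 without mutant 2 or mutant 3, and was 9 when the 3 LC10 libraries did not add to the estimate of spread. With the neuron and glia marker covariate it was 4. The share of all genes called in these settings is not given here. Microglia markers were lower for 9 of 10 genes, with sums of 11946 to 19382 in mutants and 19969 to 39519 in wild types. Of 10 neuron markers 2 were lower and 1, Stmn2, was higher (0.49, adjusted p = 0.037). Astrocyte markers were lower for 2 of 7 genes. The covariate was built from neuron, astrocyte and oligodendrocyte markers, and the part of the microglia markers in the changes was not tested. Cytosolic ribosomal proteins were higher for 26 of 78 genes, with a median of 0.15.

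Both Smad4 cohorts called 5 genes higher, among them Ndufa8, Uqcrc1, Cox6b2 and Atp5h, and 1 lower, Cox4i2. These cohorts share no library, and the share of all genes called in both was not counted. After scaling onto the IgG table by medians of ratios, the LC10-treated mutants had medians over the 79 genes of 0.078, 0.082 and 0.129, within the range of 0.024, 0.114 and 0.176 in the IgG-treated mutants. No test was made, since treatment and table cannot be told apart.

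**Figure D3:**
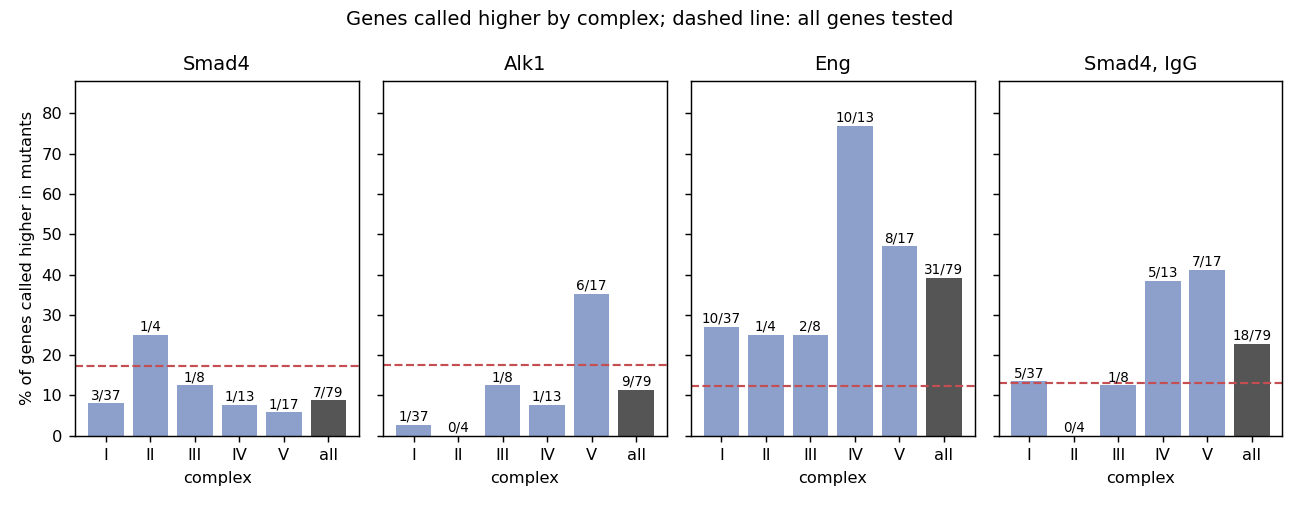
Bars give the percent of the genes of each complex, and of all 79, that were called higher in mutants, with the counts above them; the dashed line gives the percent among all genes tested. In the Eng cohort every bar lies above the line and complex IV reaches 10 of 13. Complex V alone lies above it in the Alk1 cohort, with 6 of 17. In the untreated Smad4 cohort complex II alone does, with 1 of 4. Quantile normalization ended the Alk1 calls of Atp5a1, Atp5f1, Atp5g2 and Atp5o.

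Set side by side, 44 of the 79 genes had a positive change in all 4 comparisons and 38 were called in none. No gene was called in the same direction in all 3 untreated cohorts, and none in opposite directions in any 2 comparisons. Higher in 2 untreated cohorts were 12. These counts were not made over all genes, so they set no trait of the 79 apart. In single comparisons 12.4% to 17.5% of all genes were called higher, and 46.75% to 50.47% had a positive change. Differences between cohorts were tested as differences of genotype effects. For Smad4 against Alk1, 3 of the 79 genes differed (17.1% of all 13500 genes), for Alk1 against Eng 1 (15.8%) and for Smad4 against Eng 0 (8.65%; limma, 8 at an unadjusted p under 0.05). The larger count in Eng mutants was not itself tested against the other cohorts.

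Cox6b2 showed the largest change of all. It encodes a form of subunit VIb first known from testis, and in wild types its value per kilobase of transcript was 86.8 to 148 in the 4 cohorts, against 4481 to 6231 for its paralog Cox6b1. In the Eng cohort Cox6b2 was at 30, 31, 59, 60 and 65 in wild types and at 209, 216, 232, 287 and 329 in mutants, a 5.21-fold difference on the scale of value + 2 (2.38, SE 0.24, adjusted p = 4.4e-05). In the untreated Smad4 cohort it was at 41, 49, 57, 65 and 108 in wild types and at 144, 190, 195, 196 and 197 in mutants, 2.95-fold (1.56, SE 0.24, adjusted p = 0.00065). With IgG it was at 44, 48 and 83 in wild types and at 105, 126 and 182 in mutants, 2.36-fold (1.24, SE 0.30, adjusted p = 0.017), and this call was lost without wild type 2 (adjusted p = 0.056) or mutant 3 (0.054) and with the marker covariate (0.68, adjusted p = 0.159). In the Alk1 cohort it was at 27.42 to 45.64 in wild types and at 46.05 to 64.27 in mutants. These ranges lie close together without overlapping, and the change did not pass (0.45, SE 0.20, adjusted p = 0.11).

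The response of Cox6b2 was smaller in Alk1 mutants than in the others by the test of the difference. The Smad4 effect exceeded the Alk1 effect by 1.11 (SE 0.32, adjusted p = 0.016), and the Alk1 effect fell short of the Eng effect by 1.93 (difference -1.93, SE 0.32, adjusted p = 0.00013). Between Smad4 and Eng the difference of -0.82 (SE 0.32) did not pass (adjusted p = 0.11). The Alk1 pups were taken a day earlier and had a later, smaller dose of tamoxifen, and cohort and schedule cannot be told apart. Scaled to the IgG table, Cox6b2 was at 121, 151 and 198 in LC10-treated mutants and at 95.8, 115.7 and 166.3 in IgG-treated mutants. Cox6b1 moved little, rising by 0.13 with loss of Eng and by 0.27 (adjusted p = 0.02) in the IgG cohort.

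**Figure D4:**
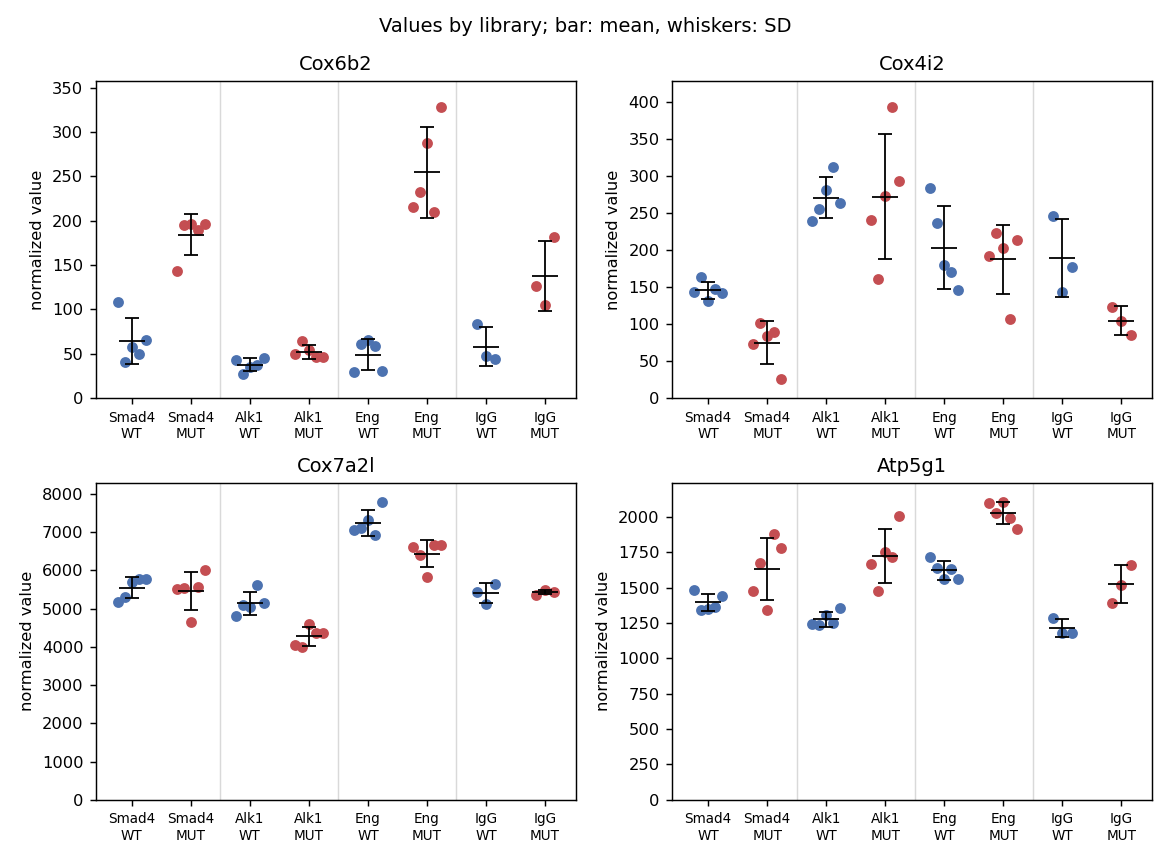
Each point is the normalized value of 1 library for the gene named above the panel, blue for wild types and red for mutants, with the mean as a bar and the SD as whiskers; tables were normalized separately, so levels compare only within a cohort. Cox6b2 is higher in Smad4, Eng and IgG mutants, Cox4i2 is lower in both Smad4 cohorts, Cox7a2l is lower in Alk1 and Eng mutants, and Atp5g1 is higher in Alk1, Eng and IgG mutants.

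Cox4i2 was the only gene called lower in the Smad4 cohorts. It encodes the form of subunit IV known for its response to low oxygen, and in brain it is known as a gene of pericytes. Per kilobase it was at 199 to 370 in wild types, against 8561 to 11190 for Cox4i1. In untreated Smad4 wild types it had values of 131, 141, 143, 147 and 164, and in mutants of 26, 73, 83, 90 and 101.1 (-1.07, SE 0.31, adjusted p = 0.024). With IgG it went from 143, 177 and 246 to 85, 104 and 123 (-0.82, SE 0.23, adjusted p = 0.029). Neither pair of groups overlapped. The first call was lost without wild type 2 (adjusted p = 0.054), with quantile normalization (-0.69, adjusted p = 0.0539), with the marker covariate (-0.58, adjusted p = 0.335) and within the L146 libraries (-1.53, adjusted p = 0.066), and the second without any one of wild type 1, wild type 3, mutant 2 or mutant 3 (adjusted p up to 0.094), with quantile normalization (-0.58, adjusted p = 0.0983), with the covariate (-0.96, adjusted p = 0.0701) and in the IgG table alone (adjusted p = 0.0521). On the scale of the IgG table the LC10-treated mutants were at 47.6, 52.3 and 60.9 and the IgG-treated mutants at 77.7, 95.6 and 113, with no test. In the Alk1 and Eng cohorts the groups overlapped, with changes of -0.04 (adjusted p = 0.89) and -0.12 (adjusted p = 0.77).

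Pericyte markers moved with Cox4i2. In untreated Smad4 mutants 6 of 10 were lower, with a median of -0.91 and a summed value of 17084 to 52836 against 59232 to 84165 in wild types. In IgG-treated mutants 7 of 10 were lower, with a median of -0.74 and sums of 39841 to 76782 against 79649 to 110396. In the Alk1 cohort 3 of 10 were lower (median -0.26), and in the Eng cohort 0 of 10 (limma, also 0 at an unadjusted p under 0.05; median 0.01; sums of 79207 to 129572 in wild types and 74781 to 134194 in mutants). The markers' part in the Cox4i2 result was not tested. Ndufa4l2, left out by the rule and also known from pericytes, had changes of -0.73 (adjusted p = 0.11) and -0.71 (adjusted p = 0.051) in the same cohorts. Mutant 5 of the untreated cohort was lowest in Cox4i2, at 26, and in Ndufa4l2, at 100.5.

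Cox7a2l was called lower in 2 cohorts. In Alk1 mutants its values were 3997, 4051, 4360, 4361 and 4590, against 4808, 5041, 5085, 5135 and 5613 in wild types (-0.27, SE 0.06, adjusted p = 0.0057). In Eng mutants they were 5829, 6390, 6617, 6655 and 6662, against 6918, 7052, 7121, 7331 and 7786 (-0.17, SE 0.05, adjusted p = 0.0175). Both pairs of groups were separate, while its paralog Cox7a2 had positive changes, called with loss of Eng (0.19, SE 0.05, adjusted p = 0.013). In the untreated Smad4 and IgG cohorts the groups overlapped, with changes of -0.03 (adjusted p = 0.78) and 0.01 (adjusted p = 0.93). The Smad4 effect exceeded the Alk1 effect by 0.24 (SE 0.08, adjusted p = 0.042), a call that ended in 14 of 37 alternatives, with adjusted p up to 0.09. For Atp5h the same difference was 0.47 (SE 0.12, adjusted p = 0.0063), and it passed in all 37.

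Some of the 79 need care as to identity. Ndufb4c is annotated as a processed pseudogene and is a close copy of Ndufb4, so reads may be split between them: in Smad4 wild types Ndufb4 was at 182 to 244 in the 3 libraries without a code and at 452 and 498 in the L146 libraries, while Ndufb4c was at 624 to 774 and at 273 and 331. Neither was called in an untreated cohort. Atp5s carries a subunit name but is not held to be part of the synthase itself, and its changes of -0.36 (adjusted p = 0.056) in Smad4 and -0.35 in Alk1 mutants were not called. The library kit does not mark strand, and 35 of the 78 genes found in GENCODE M21 overlap another gene, 26 of them one on the opposite strand. Among the genes shown by value, these include Ndufb6, which overlaps Smim27.

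The promoters of these genes were read for short motifs, because nuclear respiratory genes are known targets of NRF1, of GABP and other ETS factors and of YY1. RefSeq promoters of GRCm38.p6, 250 bases before to 50 after the start, were found for 65 of the 79. On either strand GCGCATGCG (NRF1) stood in 8 of them (12.3%), against 1.95% of all 27025 genes with a RefSeq promoter. The latter were not limited to genes expressed here. CCGGAAG (ETS) stood in 16 (24.6% against 9.93%), AAGATGGC (YY1) in 10 (15.4% against 3.19%), and ACGTG, the hypoxia response core, in 16 (24.6% against 21.8%). These are matches of letters in a window, and no binding was measured here. The sequences printed are those of Cox6a1, higher in 3 comparisons and holding NRF1 and ETS letters, Atp5g1, higher in the same 3 and holding ACGTG alone, and Cox6b2, the gene that moved most and holding none of the 4, each as the 250 bases before the start, written on the strand of the gene with the motifs in capitals. For Uqcrc1, higher in 3 comparisons, the NRF1 letters lie after the start, and 30 bases around them are shown.
Cox6a1: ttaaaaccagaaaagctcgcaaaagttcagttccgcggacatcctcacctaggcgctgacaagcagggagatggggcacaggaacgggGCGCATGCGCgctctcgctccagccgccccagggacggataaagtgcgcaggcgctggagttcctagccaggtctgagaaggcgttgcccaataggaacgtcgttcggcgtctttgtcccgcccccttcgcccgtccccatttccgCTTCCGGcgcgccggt
Atp5g1: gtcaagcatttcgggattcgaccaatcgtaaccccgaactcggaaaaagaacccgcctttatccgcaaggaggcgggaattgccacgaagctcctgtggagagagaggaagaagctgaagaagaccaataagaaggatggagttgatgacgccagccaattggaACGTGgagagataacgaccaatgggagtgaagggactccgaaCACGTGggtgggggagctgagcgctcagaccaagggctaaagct
Cox6b2: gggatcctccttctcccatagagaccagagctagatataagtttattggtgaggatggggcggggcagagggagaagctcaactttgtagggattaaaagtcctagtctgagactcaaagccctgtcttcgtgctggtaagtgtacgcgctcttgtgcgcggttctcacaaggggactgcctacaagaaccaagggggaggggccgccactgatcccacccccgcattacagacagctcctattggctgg
Uqcrc1: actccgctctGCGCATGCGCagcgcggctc
They lie at chr5:115348959-115349208 (minus strand), chr11:96075632-96075881 (minus strand), chr7:4753095-4753344 (minus strand) and chr9:108936668-108936697 (plus strand). GCGCATGCGC reads the same on both strands, so each such run counts once per strand. In Cox6a1 it begins 162 bases before the start and CTTCCGG, the ETS letters on the other strand, 16 bases before it. In Uqcrc1 it begins at base 31 after the start. In Atp5g1 the ACGTG matches begin 86, 44 and 43 bases before the start, the latter pair overlapping in CACGTG. By GENCODE M21 on mm10 Cox6b2 spans chr7:4751792-4753094 and Atp5g1 chr11:96068852-96075670 on the minus strand, Uqcrc1 chr9:108936633-108949623 and Cox4i2 chr2:152754173-152765037 on the plus strand, and Cox7a2l chr17:83501918-83517330 on the minus strand.

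Genes that work with the chain were described from lists by function. Their counts stand beside shares of 17.2% higher and 15.8% lower among all genes in Smad4, 17.5% and 15.7% in Alk1, 12.4% and 9.08% in Eng and 13.2% and 10.8% in IgG-treated mutants, and no list was tested against all genes. Of the genes on these lists only Cycs, Cox4i2 and Ndufa4l2 were followed under the alternatives, so how steady the other calls are is not known. Cycs, cytochrome c, was higher in all 4 comparisons: by 0.29 (SE 0.08, adjusted p = 0.019) in Smad4, 0.34 (SE 0.12, adjusted p = 0.039) in Alk1, 0.32 (SE 0.03, adjusted p = 6.2e-05) in Eng and 0.26 (SE 0.07, adjusted p = 0.028) in IgG-treated Smad4 mutants. In the Eng cohort its values were 2110, 2179, 2215, 2243 and 2291 in wild types and 2657, 2707, 2742, 2796 and 2831 in mutants, without overlap, and that call held in all 21 alternatives. The call was lost in 2 of 23 alternatives in Smad4 (with the covariate 0.15, adjusted p = 0.332), in 12 of 23 in Alk1 and in 7 of 16 in IgG-treated mutants. Of 15 electron carrier genes in all, 1 was higher and 1 lower in Smad4, 1 and 4 in Alk1, 3 and 1 in Eng and 1 and 0 in IgG-treated mutants. The 4 lower in Alk1 mutants were Coq8a and Coq9, of ubiquinone synthesis, and Etfb and Etfdh, which pass electrons from fatty acid oxidation to ubiquinone.

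Of 13 genes of the tricarboxylic acid cycle, which supplies NADH and succinate, 5 were higher in Smad4, 4 in Alk1, 7 in Eng and 4 in IgG-treated mutants, and 0 were lower in any. Cs (citrate synthase), Dlst and Mdh2 (malate dehydrogenase) were higher in all 4. Mdh2 rose by 0.31 (SE 0.07, adjusted p = 0.005), 0.28 (SE 0.06, adjusted p = 0.0043), 0.24 (SE 0.04, adjusted p = 0.00069) and 0.24 (SE 0.05, adjusted p = 0.0085) in the same order. Slc25a5, an ADP/ATP carrier of the inner membrane, rose by 0.28 in Smad4, 0.41 in Alk1 and 0.20 in Eng mutants (adjusted p of 0.026, 0.0046 and 0.00056).

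Assembly factors build the complexes without being part of them. For complex I, 0 of 15 were higher in any comparison by limma (0, 0, 1 and 3 at an unadjusted p under 0.05 in Smad4, Alk1, Eng and IgG-treated mutants), with medians of -0.09, -0.20, 0.01 and 0.14. Lower were Ndufaf3 in Alk1 (-0.30, adjusted p = 0.027) and Ndufaf7 in Eng mutants (-0.23, adjusted p = 0.032). For complex V, Atpaf2, a chaperone of the alpha subunit, was lower in Smad4 (-0.27, SE 0.06, adjusted p = 0.0083), Alk1 (-0.41, SE 0.07, adjusted p = 0.00062) and Eng mutants (-0.28, SE 0.08, adjusted p = 0.026), the cohorts in which Atp5a1 changed by 0.16 (not called), 0.21 and 0.14. For complex IV, 3 of 20 were higher in Smad4, 2 higher and 1 lower in Alk1, 0 called in Eng (1 at an unadjusted p under 0.05) and 2 higher in IgG-treated mutants. Surf1, lower in Alk1 mutants (-0.39, SE 0.09, adjusted p = 0.005), acts early in building complex IV.

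Of 14 regulators of mitochondrial biogenesis 1 was higher and 1 lower in Smad4, 1 and 3 in Alk1, 1 and 1 in Eng and 2 and 1 in IgG-treated mutants. Ppargc1b, a coactivator of respiratory genes, was lower in Smad4 (-0.83, SE 0.14, adjusted p = 0.0016), Alk1 (-0.85, SE 0.26, adjusted p = 0.024) and IgG-treated Smad4 mutants (-0.72, SE 0.20, adjusted p = 0.03). Its relative Pprc1 was higher in Smad4 (0.36), Eng (0.26) and IgG-treated mutants (0.49), with adjusted p of 0.029, 0.0044 and 0.003. Of 10 genes of the switch from respiration to glycolysis under low oxygen, 6 were higher in Alk1 mutants. They include Ldha (1.03, SE 0.07, adjusted p = 1.3e-06), which turns pyruvate into lactate, and Slc16a3 (3.63, SE 0.17, adjusted p = 1.1e-07), which exports lactate. Pdk1 (0.74, SE 0.09, adjusted p = 6.7e-05), which inhibits pyruvate dehydrogenase, was also among them. Ldha was higher in Smad4 and Eng mutants too, by 0.57 and 0.42 (adjusted p of 0.015 and 2.9e-05). So was Slc16a3, by 1.41 and 0.71 (adjusted p of 0.036 and 0.041), while Pdk1 was called in neither (0.16 and 0.05). In IgG-treated Smad4 mutants 0 of the 10 were higher (limma; 1 at an unadjusted p under 0.05), and Cox4i2 and Bnip3, a mitophagy receptor, were lower (Bnip3 -1.10, SE 0.13, adjusted p = 0.0009). The 13 subunits encoded in mitochondrial DNA are not among the genes analysed here.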

How the data were processed

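In the tables as deposited the unit is a signal already normalized by the authors, since values are not whole numbers, although the labels speak of raw counts. The submitters' processing notes name mm10; aligner, counter and scaling: not given in the sources used here. Per the labels' protocols the kit was TruSeq RNA v2, which keeps no strand. Of 24972 rows, 26 were dropped because their names were dates or occurred more than once. Columns of untreated cohorts were matched to groups only, so their replicate numbers are file order; 3 columns that match no described sample were not used.

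Values were put on the log2(value + 2) scale and not rescaled. The filter kept genes reaching 20 in 5 or more libraries (3 with antibody). The test was limma (version 3.58.1, R 4.3.3), two-sided, with a trend on intensity, each cohort alone, with Benjamini-Hochberg adjustment over all genes tested. In the IgG fit the 3 LC10 libraries were a group of their own. Differences between cohorts came from a joint fit of the untreated libraries. The scale is comparable only within a table, and the pseudocount makes changes of low genes too small. The procedure was tested on simulated data with changes larger than most of those reported here, so it does not show how well smaller ones are found. The depth in reads is unknown, so no counting error is given, and precision rests on the number of libraries. No pair of libraries was identical.

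Coordinates and lengths are from GENCODE M21, and promoters from RefSeq. Named genes are, per comparison and complex, up to 3 with the smallest adjusted p, genes called in several cohorts or differing between them, paired isoforms, the targeted genes and up to 3 per list; some shown by value were chosen after their values were seen. Members and lists were chosen with earlier results of these data known. Alternatives were other scalings, pseudocounts, filters, no trend, library codes, a neuron and glia marker covariate and leaving out libraries. Figures were drawn with matplotlib. The values of 1 member are not reported here, though counts and medians include it.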

Additional observations from a re-analysis of the deposited data

Results flagged for a closer look

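Of 126 tests for a library far from the others of its group, 10 were positive, and chance gives about 1 in 20. Smad4 mutant 3 was far below its group in the median over the 79 genes (-0.241) and over complexes I (-0.26), II (-0.274) and III (-0.293), and in the value of Ndufb7 (1283.1). Alk1 wild type 2 was low in the medians of complexes I and V, both at -0.185, and Alk1 mutant 2 in Ndufb6 (581.3). In single genes Cox6b2 was lowest in Smad4 mutant 1 (143.7), still above every wild type of that cohort, and Cox4i2 was lowest in Eng mutant 4 (106.5).

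Genotype effects differed between cohorts, by limma over all genes, for Cox6b2 (Smad4 minus Alk1 1.1136, and Alk1 minus Eng -1.933), for Atp5h (Smad4 minus Alk1 0.4675) and for Cox7a2l (Smad4 minus Alk1 0.2385).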

How the results depend on the processing

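No called gene changed direction under any alternative. Of the called genes, Cycs included, those called in every setting numbered 2 of 9 for Smad4 (Cox6b2 and Uqcrc1), 1 of 11 for Alk1 (Atp5g1), 10 of 33 for Eng and 2 of 20 for IgG (Atp5g2 and Cox6a1). Scaling by library totals gave 4 higher, 2 lower and a reversed median of -0.018 in Smad4, 3 and 2 in Alk1, 11 and 2 in IgG, and 2 genes differing between Smad4 and Eng. Quantile normalization gave 0 lower in Smad4, 3 higher and 2 lower in Alk1, 10 higher in IgG, 1 gene differing between Smad4 and Eng and 2 between Alk1 and Eng. Without the trend Smad4 had 2 lower and IgG 9 higher. The joint fit gave 13 higher and 2 lower in Smad4, 14 and 3 in Alk1, and 12 and 0 in Eng. By library code, L146 alone gave 20 higher and 0 lower, L219 alone 14 higher, and Alk1 libraries without a code 2 and 0; with the code as a term Smad4 had 17 and 2 and Alk1 15 and 2, and Smad4 34 higher without mutant 3. The marker covariate gave 3 higher and a reversed median of -0.074 in Smad4, 14 higher in Alk1, and 4 and 0 in IgG. The IgG table alone gave 9 and 0. Leaving out 1 library at a time, the number higher ran from 5 to 22 in Smad4, 5 to 15 in Alk1, 23 to 32 in Eng and 5 to 23 in IgG, the number lower from 0 to 2, 1 to 2, 1 to 2 and 0 to 1, and the genes differing from 2 to 6 for Smad4 and Alk1 (6 without Smad4 mutant 3) and from 1 to 2 for Alk1 and Eng (2 without Alk1 wild type 2). Same-numbered IgG libraries did not deviate together (correlations 0.043, 0.016 and -0.067, beside -0.141 to 0.138 for other pairs). With 3 libraries a group this cannot exclude a shared origin. With the replicate block 2 genes were lower in IgG. The causes were not tested. Other pseudocounts and filters kept every count within 1.5 times. Normalized values without read depth limit what can be said of low genes such as Cox6b2 and Cox4i2.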
